A study of Mus musculus with 46 samples.

Results

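Inulin was fed as part of a high-fat diet (HFD), and RNA of the liver was compared with that of mice on the HFD alone. The comparison used the 6 liver arrays labelled HFD + inulin and the 6 labelled HFD, which are 12 of the 46 arrays in the series. The mice were male C57BL/6, an inbred strain, labelled as 20 weeks old and killed after 8 weeks of feeding. The methods give 12 weeks as their age before a period of acclimatisation, so the age at which the diets began is not settled. HFD supplied 45% of its energy as fat. In HFD + inulin, inulin made up 10% of the weight and took the place of corn starch (5%) and cellulose (5%) of the HFD, so the diets differed in starch and cellulose as well as in inulin. Liver arrays of 2 other diets served as references, with 6 arrays each: HFD + inul PB, in which inulin propionate ester and inulin butyrate ester were fed at 5% each, and a low-fat diet (LFD) with 10% of energy as fat. By the study's diet recipes the LFD also held more corn starch and sucrose than the HFD, so it differed in carbohydrate as well as in fat. Of the 12 mice on a diet 6 were arrayed. Blood was drawn from the portal vein or the heart, and which mouse was bled how is not given for the arrays.

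Inulin is a fructose polymer that mammals cannot digest and that gut bacteria ferment to acetate, propionate and butyrate, which reach the liver through the portal vein. The liver makes fatty acids from carbohydrate and acetate under the transcription factors SREBP1c and ChREBP, oxidises them under PPAR alpha, and makes cholesterol under SREBP2 when sterols run low. It also secretes the acute phase proteins, among them serum amyloid A, under signals such as interleukin 6 and interleukin 1 that act through STAT3 and NF-kappaB. Kupffer cells are its resident macrophages, and monocytes that enter under chemokines such as CCL2 add to them in fatty liver.

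Agilent mouse arrays of 62976 spots were used with a single dye (Cy3) and 1 liver sample per array, so that the brightness of a spot measures the RNA bound to its probe. Values are log2 signals after cyclic loess normalisation over the 24 liver arrays, and a difference of 1 is a 2-fold change. The level of one probe cannot be set against that of another. The arrays lay on 3 slides, each holding 2 arrays of each diet and each scanned on its own, so differences are also given within slides. HFD and HFD + inulin arrays lay in columns 1 and 3 of a slide, and HFD + inul PB and LFD arrays in columns 2 and 4. Differences of HFD or HFD + inulin from HFD + inul PB or LFD therefore cannot be told apart from differences between columns. Well above background were 46.4 to 51.7% of the spots of a liver array, and the correlation between any 2 liver arrays was between 0.966 and 0.988. A gene symbol was matched to 27509 of the 55681 probes, and the 20887 genes they name are each given by their brightest probe. Of these genes, 12394 were well above background on every HFD or every HFD + inulin array. Pathways were read through 19 gene lists and cell types through 11 lists of markers, of which 469 of 479 different genes were measured.

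The tissue label held. All 8 hepatocyte markers, with albumin (*Alb*) and transthyretin (*Ttr*) among them, were well above background on every array, and their median log2 difference between HFD + inulin and HFD was 0.06. Some arrays stood apart in markers of other tissues. Over 6 adipocyte markers, HFD replicate 3 averaged 1.82 above the HFD mean and HFD + inulin replicate 4 averaged 2.16 above it. The summed adipocyte signal was between 16.94 and 17.41 on the log2 scale on all 12 arrays. The *Car3* probe added the most to this sum, which says nothing of RNA amounts. *Adipoq* was well above background on 1 HFD and 2 HFD + inulin arrays. Of 6 pancreatic acinar markers, all 6 were well above background on HFD + inulin replicate 6 and 1 (*Ctrb1*) on the others. Their average was 4.71 above the HFD mean on that array, and their summed signal was 11.91 there against 8.44 to 9.27 on the remaining HFD + inulin arrays. The list counts and the named genes were also computed without the 6 liver arrays on which either list averaged more than 1 above the HFD mean (HFD replicate 3, HFD + inulin replicates 4 and 6, HFD + inul PB replicate 4 and LFD replicates 3 and 4). Values without them are given beside several of the results, and the part of such tissue in the results was not tested beyond this.

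No probe passed adjustment in the comparison of HFD + inulin with HFD. The lowest Benjamini-Hochberg adjusted limma P over the 55681 probes was 0.153 (*Smim1*), and 0 probes were under 0.05, while 2108 had an unadjusted P under 0.05. An unadjusted P under 0.01 was reached by 441 probes, where 557 would be reached if no gene differed. At a fold difference over 1.5 with an unadjusted P under 0.01, the criteria used by the study, 222 probes differed (0.399% of all probes), 100 of them higher and 122 lower on HFD + inulin. Cyclic loess over all pairs of arrays turned this split to 141 higher and 86 lower. It was 176 and 140 without slide 2, 137 and 105 without HFD + inulin replicate 4, and 131 of 238 were higher without the 6 arrays with adipocyte or pancreatic signal. Of the 222 probes, 111 carried a gene symbol and 82 were well above background. The shifts described next are therefore shifts of groups of genes. They are given by counts and medians beside the same values over all 20887 genes, of which 52% were higher and 48% lower on HFD + inulin, with a median of 0.01. At an unadjusted limma P under 0.05, 2.19% of all genes were higher and 2% lower.

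**Figure D1:**
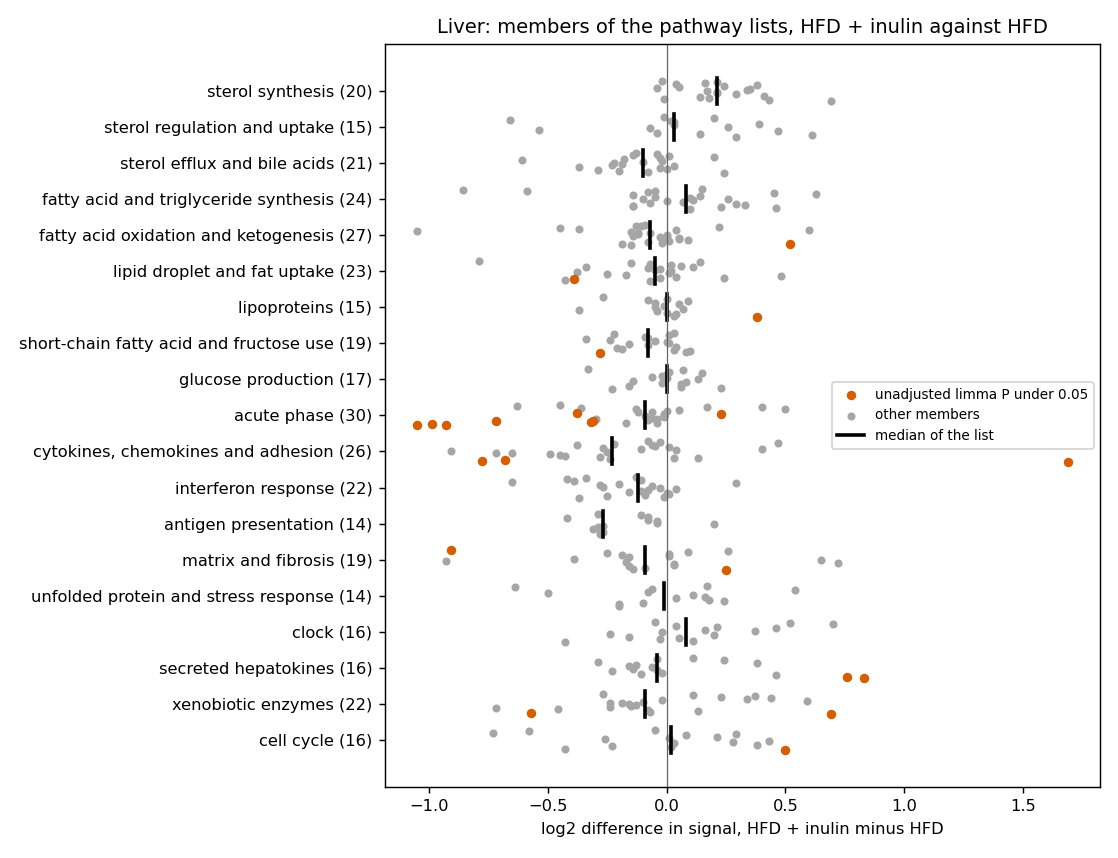
Members of the 19 pathway lists in liver (number measured in brackets), each point the log2 difference of 1 gene, HFD + inulin minus HFD, over 6 arrays a diet; orange points have an unadjusted limma P under 0.05 and bars are list medians. The acute phase list holds 7 orange points below 0, the sterol synthesis list lies to the right of 0 with a median of 0.21 and no orange point, and the antigen presentation list lies to the left with a median of -0.27.

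Most acute phase genes were lower on HFD + inulin. Of 30 members 24 were lower and 6 higher, 7 were lower and 1 was higher at a limma P under 0.05, and 3 passed the fold and P criteria (*Saa1*, *Saa2* and *Lcn2*; 0.402% of all genes did). The median difference was small, -0.09 (0.00 with cyclic loess over all pairs, which moved the median of all genes to 0.07), and the members differed widely. Among the abundant plasma proteins, *C3* (complement C3) differed by -0.01, *Cp* (ceruloplasmin) by -0.01, the fibrinogen chains *Fga* and *Fgb* by -0.01 each, *Hp* (haptoglobin) by -0.08 and *Crp* (C-reactive protein) by -0.06. Of other inducible members, named after their values were seen, *Hamp*, which encodes the iron hormone hepcidin, differed by 0.50 (exact permutation P = 0.132), *Lbp*, which binds lipopolysaccharide, by 0.05 and *Saa3*, a further serum amyloid A gene, by -0.04. The list medians on slides 1, 2 and 3 were -0.11, -0.08 and -0.09. Of its members 11 (36.7%) were lower on all 3 slides, against 11.9% of all genes. Averaged over its members and relative to the HFD mean, the list lay between -0.18 and 0.19 on the HFD arrays and between -0.45 and 0.02 on the HFD + inulin arrays, so the diets overlapped.

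*Saa1*, which encodes serum amyloid A1, a plasma apolipoprotein that rises steeply in inflammation, had a log2 signal of 12.89 at the lowest, 13.32 at the median and 14.50 at the highest on HFD, and of 11.93, 12.33 and 13.56 on HFD + inulin. Only HFD + inulin replicate 5 reached the HFD median. The difference was -0.93 (SE 0.28, limma P = 0.00312, exact permutation P = 0.0216), which is a 1.91-fold higher signal on HFD. *Saa2*, its neighbour and near copy, was at 12.81, 13.46 and 14.73 on HFD and at 11.71, 12.31 and 13.83 on HFD + inulin. The same HFD + inulin replicate 5 was the highest of its diet. The *Saa2* difference was -1.05 (SE 0.32, limma P = 0.00388, exact permutation P = 0.0368), or 2.07-fold. Both genes are so alike that their probes may bind RNA of either, which was not tested. They may therefore count as little more than a single measurement. *Lcn2*, which encodes lipocalin 2, a protein that withholds iron from bacteria by binding their siderophores, had 8.89, 9.52 and 10.95 on HFD and 7.82, 8.74 and 9.63 on HFD + inulin. The diets overlapped for it too. It differed by -0.99 (SE 0.33, limma P = 0.00671, exact permutation P = 0.039), or 1.98-fold.

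These 3 differences lay on slides 1 and 2. *Saa1* differed by -1.32 and -1.36 there and by -0.11 on slide 3, *Saa2* by -1.61, -1.64 and 0.11, and *Lcn2* by -1.33, -1.51 and -0.12. Without HFD replicate 4, the highest array for each of them, the differences were -0.72 for *Saa1*, -0.82 for *Saa2* and -0.72 for *Lcn2*, and all 3 genes missed the fold and P criteria by their limma P. Without the 6 arrays with adipocyte or pancreatic signal they were -0.90, -1.07 and -0.85, and the limma P was again over 0.01 for each. The list median was -0.10 in that fit, with 5 members lower and 1 higher at a P under 0.05 and 1 at the fold and P criteria. Without HFD + inulin replicate 6 the members lower at a P under 0.05 numbered 3, without slide 3 they numbered 4, and without slide 2 none passed the fold and P criteria.

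The remaining acute phase genes at a limma P under 0.05 were named after their values were seen. *Serpina3n*, a secreted serine protease inhibitor, was at 12.00 to 12.88 (median 12.44) on HFD and 11.77 to 12.50 (median 12.04) on HFD + inulin, a difference of -0.38 (exact permutation P = 0.0606), with -0.18, -0.22 and -0.72 on the 3 slides. The orosomucoids, plasma carrier proteins whose genes are also near copies, gave -0.32 for *Orm1* (exact permutation P = 0.0498), -0.31 for *Orm2* (exact permutation P = 0.0823) and -0.72 for *Orm3* (exact permutation P = 0.0974). *Cfb*, complement factor B, went the other way, from 15.79 to 16.26 (median 16.12) on HFD to 16.25 to 16.43 (median 16.31) on HFD + inulin. All but the lowest HFD + inulin array lay above every HFD array. The difference for *Cfb* was 0.23 (SE 0.07, limma P = 0.00278, exact permutation P = 0.00433).

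**Figure D2:**
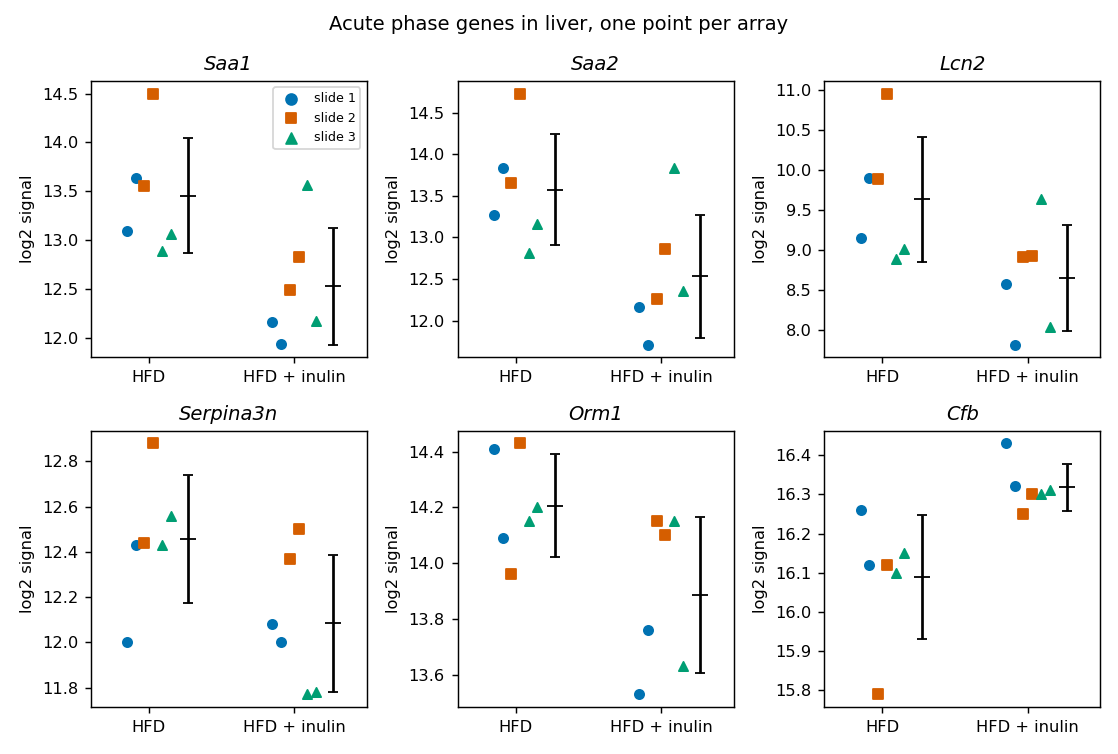
Log2 signal of 6 acute phase genes on each of the 6 HFD and 6 HFD + inulin liver arrays, with the slide marked by symbol and the mean and SD of each diet beside the points. For Saa1, Saa2 and Lcn2 the slide 3 arrays of both diets overlap while those of slides 1 and 2 do not, and for Cfb the HFD + inulin arrays lie at 16.25 and above.

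The other diets gave values of the same sign for these genes. *Saa1* differed from HFD by -0.87 on HFD + inul PB (exact permutation P = 0.00866) and by -0.65 on LFD (exact permutation P = 0.0476), *Saa2* by -0.96 (exact permutation P = 0.0152) and -0.74 (exact permutation P = 0.039), and *Lcn2* by -0.90 (exact permutation P = 0.0108) and -0.56 (exact permutation P = 0.169). All of these differences, like those of HFD + inulin, are taken against the same 6 HFD arrays. Set directly against HFD + inul PB, HFD + inulin differed by -0.06 for *Saa1* (95% interval -0.64 to 0.52), -0.08 for *Saa2* (-0.76 to 0.59) and -0.09 for *Lcn2* (-0.77 to 0.59). These intervals leave room for a difference of either sign. The orosomucoids were otherwise placed: *Orm1* was at 0.26 on LFD relative to HFD, and the direct difference between HFD + inulin and LFD was -0.58 (exact permutation P = 0.00216).

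Because *Saa1*, *Saa2* and *Lcn2* were lower together, the 250 bases before their transcription starts are shown, from RefSeq on mouse GRCm38.p6. They stand at chr7:46742981-46743230 on the minus strand for *Saa1*, chr7:46751583-46751832 on the plus strand for *Saa2* and chr2:32387740-32387989 on the minus strand for *Lcn2*, each written 5′ to 3′ in the direction of the gene. Capitals mark matches to an NF-kappaB motif, 3 G, any 5 bases and 2 C, searched on both strands.
Saa1: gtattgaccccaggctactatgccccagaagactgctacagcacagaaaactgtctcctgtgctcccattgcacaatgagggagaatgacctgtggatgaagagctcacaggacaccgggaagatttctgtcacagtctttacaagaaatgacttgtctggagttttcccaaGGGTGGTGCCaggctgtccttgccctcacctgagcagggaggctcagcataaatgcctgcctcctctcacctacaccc
Saa2: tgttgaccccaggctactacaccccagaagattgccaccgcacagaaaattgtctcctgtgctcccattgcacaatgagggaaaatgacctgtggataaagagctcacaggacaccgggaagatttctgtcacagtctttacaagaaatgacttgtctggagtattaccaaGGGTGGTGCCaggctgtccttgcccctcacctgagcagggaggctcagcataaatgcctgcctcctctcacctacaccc
Lcn2: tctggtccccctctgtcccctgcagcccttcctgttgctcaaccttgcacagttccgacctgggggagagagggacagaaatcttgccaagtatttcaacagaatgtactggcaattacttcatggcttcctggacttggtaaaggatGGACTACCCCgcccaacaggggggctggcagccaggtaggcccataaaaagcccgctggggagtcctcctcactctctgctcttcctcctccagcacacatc

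The *Saa1* and *Saa2* stretches differ by 13 single-base edits over 250 bases. The match lies 78 to 69 bases before the start in *Saa1*, 79 to 70 in *Saa2* and 102 to 93 in *Lcn2*, where it is on the opposite strand. The letters are loose, since 45.8% of all 32851 promoters in the table hold a match, and 16 of 29 promoters of acute phase genes (55.2%) did. The share was higher among promoters of the sterol synthesis list, 14 of 18 (77.8%), so the match was not particular to acute phase genes. A STAT3 motif, TTCNNNGAA, was found in 7 of those 29 promoters (24.1%) and in 7.02% of all promoters, but not in the 3 windows shown. These are matches of letters and no evidence of binding.

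Genes of inflammation outside the acute phase were lower as well, but through slide 2. Of 26 cytokine, chemokine and adhesion genes 19 were lower and 7 higher with a median of -0.23, of 22 interferon response genes 18 were lower and 4 higher with a median of -0.12, and of 14 antigen presentation genes 13 were lower and 1 higher with a median of -0.27. At a P under 0.05 the first list held 2 lower genes and 1 higher gene and the other lists 0 in either direction. Those 2 lower genes were lost without HFD replicate 3 and likewise without HFD + inulin replicate 4 or 6. On slides 1, 2 and 3 the medians were 0.10, -0.67 and -0.06 for the cytokine list, -0.02, -0.52 and 0.06 for the interferon list and -0.09, -0.61 and 0.06 for the antigen presentation list. Without slide 2 they were 0.01, 0.04 and 0.04. Slide 2 holds HFD replicate 3, which had the highest mean of all 12 arrays for the 3 lists (0.64, 0.54 and 0.54 above the HFD mean) and also for 8 T cell markers (0.55). Without that array the medians were -0.09, -0.05 and -0.10, and without the 6 arrays with adipocyte or pancreatic signal the medians were 0.02, -0.03 and -0.14. Background correction by normexp, and likewise the authors' values, gave the cytokine list a median of -0.06.

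*Cxcl10*, an interferon-induced chemokine that draws T cells, was at 9.05, 9.46 and 11.11 (lowest, median and highest) on HFD and at 8.35, 8.83 and 9.76 on HFD + inulin. The top value belonged to HFD replicate 3. It differed by -0.78 (SE 0.34, limma P = 0.0345, exact permutation P = 0.0563), and by -0.49 without that array. *Ccl2*, which draws monocytes, was at 6.58, 7.48 and 8.44 on HFD and at 6.24, 6.86 and 7.66 on HFD + inulin, a difference of -0.68 (SE 0.32, limma P = 0.048, exact permutation P = 0.0866). Within slides *Ccl2* gave -0.17, -1.99 and 0.13. Both genes missed a limma P under 0.05 when any 1 of several arrays was left out, HFD replicates 3 and 4 and HFD + inulin replicates 3, 4 and 6 among them. *Cxcl13*, a chemokine for B cells, was the gene of the list that was higher at a limma P under 0.05. It was at 3.82, 5.48 and 7.32 on HFD and 6.57, 6.78 and 7.69 on HFD + inulin. Its difference was 2.16, 1.05 and 1.86 on the slides and 1.69 over all (SE 0.49). Only 4 of 6 HFD arrays had it well above background, so it passed the filter on dim probes through HFD + inulin alone. The *Cxcl13* difference was 0.75 with normexp background correction and 0.92 with the authors' values. On LFD the *Cxcl13* signal was 2.34 above that on HFD.

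**Figure D3:**
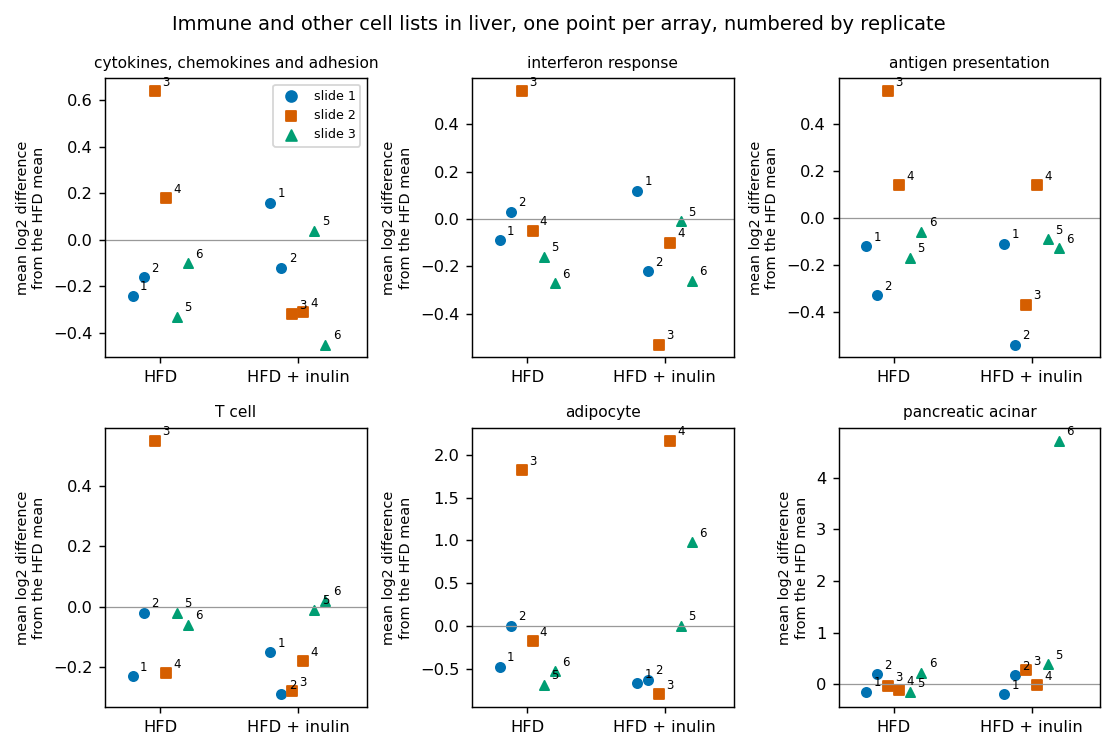
Mean log2 difference from the HFD mean over 3 inflammation lists and 3 cell type lists, 1 point per array numbered by replicate, with the slide marked by symbol. HFD replicate 3 is the highest HFD array for the T cell list (0.55) and the adipocyte list (1.82) and for the 3 inflammation lists, and HFD + inulin replicate 6 stands alone at 4.71 for the pancreatic acinar list.

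The macrophage and Kupffer cell list did not shift as a whole, with 17 of 25 members higher and a median of 0.07 (0.46, -0.28 and -0.09 on the 3 slides). The median was -0.02 without HFD + inulin replicate 1, and lay between -0.20 and 0.24 over all settings. At a limma P under 0.05 the list held 3 lower genes and 1 higher gene, and the lower genes numbered 1 without slide 2 and likewise without the 6 arrays with adipocyte or pancreatic signal. *Itgax*, the CD11c integrin chain of dendritic cells and some macrophages, was at 6.66, 7.21 and 8.09 on HFD and at 6.12, 6.43 and 7.12 on HFD + inulin, a difference of -0.74 (SE 0.24, limma P = 0.00526, exact permutation P = 0.0368). It too rested on slide 2, with -0.01, -1.77 and -0.43 within slides and -0.22 without slide 2. *Trem2*, a lipid-sensing receptor, differed by -0.69 (limma P = 0.0466, exact permutation P = 0.0952), and by -0.47 at a P over 0.05 without HFD + inulin replicate 6, and *Ccr2*, the receptor for CCL2, by -0.84 (limma P = 0.0134, named after its value was seen). *Ccr2* was well above background on 5 of 6 HFD and 2 of 6 HFD + inulin arrays. *Marco*, a scavenger receptor of resident macrophages, was higher: it was at 9.18, 9.95 and 12.26 on HFD and at 10.94, 11.50 and 11.83 on HFD + inulin. Its highest HFD value was again HFD replicate 3. The *Marco* difference was 1.12 (SE 0.47, limma P = 0.0257, exact permutation P = 0.0433), and 1.52 without that array, while without HFD replicate 5 it was 0.90 at a limma P over 0.05. The Kupffer cell genes *Clec4f*, *Vsig4* and *Timd4* differed by 0.12, 0.01 and 0.06, and *Cd14*, a co-receptor for lipopolysaccharide named after its value was seen, by 0.71 (exact permutation P = 0.0887). In pieces of liver, fewer cells of a type and less RNA per cell cannot be told apart.

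Of the other cell type lists, T cell markers had a median of -0.12 (2 of 8 higher), B and plasma cell markers 0.16 (5 of 8 higher), neutrophil markers -0.02 (4 of 8), endothelial markers 0.14 (7 of 8), stellate cell markers -0.06 (3 of 8), bile duct markers -0.18 (1 of 6), adipocyte markers 0.41 (4 of 6), erythroid markers 0.08 (2 of 4) and pancreatic acinar markers 0.85 (6 of 6). Several of these medians rested on single arrays or a slide. Without HFD + inulin replicate 6 the B and plasma cell median was -0.15 (3 of 8 higher) and the pancreatic acinar median 0.02, without HFD + inulin replicate 4 the adipocyte median was 0.06 and the erythroid median -0.02, and without HFD replicate 3 the T cell median was 0.01 and the neutrophil median 0.03. Without slide 2 the T cell median was 0.03, and without slide 3 the B and plasma cell median was -0.20. Without the 6 arrays with adipocyte or pancreatic signal the B and plasma cell median was -0.02, the T cell median -0.04 and the adipocyte median 0.15. At a limma P under 0.05 only *Lrat*, which stores retinol as ester in stellate cells (-0.52, exact permutation P = 0.0195), and *Cd22*, a receptor that restrains B cells (-0.22, exact permutation P = 0.026), passed in these lists. Both were named after their values were seen. The stellate cell list held 0 genes at a P under 0.05 without slide 2, or without the 6 arrays with adipocyte or pancreatic signal.

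Genes of cholesterol synthesis were mostly higher, without any of them reaching a P under 0.05. Of 20 enzymes from acetyl-CoA to cholesterol 17 were higher and 3 lower, with a median of 0.21. *Sqle*, squalene epoxidase, was at 9.84, 10.63 and 12.97 on HFD and at 9.95, 11.80 and 13.12 on HFD + inulin, a difference of 0.43 (SE 0.60, limma P = 0.482, exact permutation P = 0.558). The *Sqle* difference was 0.11 without HFD + inulin replicate 2 and 0.80 without HFD replicate 2. Within a diet these genes spread over a far wider range than the difference between diets: the mean of the list ran from -0.68 to 0.94 over the HFD arrays and from -0.54 to 1.00 over the HFD + inulin arrays. The medians on slides 1, 2 and 3 were -0.02, 0.07 and 0.63, and without slide 3 the median was -0.04 with 8 of 20 genes higher. With single arrays dropped it went from 0.03 (HFD + inulin replicate 2) and 0.06 (HFD replicate 3) up to 0.40 (HFD + inulin replicate 4) and 0.44 (HFD replicate 2), and it was 0.26 without the 6 arrays with adipocyte or pancreatic signal.

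Of 15 genes of sterol regulation and uptake 10 were higher, with a median of 0.03 and none at a P under 0.05. Without HFD + inulin replicate 4 the median was 0.00, with 7 higher and 8 lower and 2 higher at a P under 0.05. It was 0.16 without slide 3, and 0.00 to 0.11 over fits with 1 array left out. *Srebf2*, the gene of SREBP2, differed by 0.14 (limma P = 0.408, exact permutation P = 0.288). Of 21 genes of sterol efflux and bile acids 17 were lower, with a median of -0.10 and slide medians of -0.05, -0.06 and -0.11, again with none at a P under 0.05. The median was -0.02 with cyclic loess over all pairs and -0.05 without slide 3 (14 lower). *Cyp7a1*, the rate-limiting enzyme of bile acid synthesis, varied between 9.26 and 11.37 on HFD and between 9.69 and 11.36 on HFD + inulin, and its difference was 0.24 (SE 0.85, exact permutation P = 0.587), with 0.01 to 0.43 over fits with 1 array left out. *Cyp39a1*, which hydroxylates the brain-derived oxysterol 24-hydroxycholesterol on its way to bile acids, lay outside the list and was noticed after its values were seen. It was at 9.88, 10.74 and 10.87 on HFD and at 11.44, 11.51 and 11.72 on HFD + inulin, so that every HFD + inulin array was above every HFD array. The 2 diets did not overlap, in either direction, for 0.302% of all genes. *Cyp39a1* differed by 0.98 (SE 0.25, limma P = 0.000843, exact permutation P = 0.00216, the smallest this test can give with 6 arrays against 6).

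The promoter of *Hmgcs1*, HMG-CoA synthase of the same pathway, is shown as the member of the sterol synthesis list with matches to the motifs of both factors that drive it, SREBP and NF-Y. It lies at chr13:119690101-119690350 on the plus strand of GRCm38.p6 (RefSeq), 250 bases before the start. Capitals mark TCACNCCAC (sterol regulatory element) and CCAAT (NF-Y box, here on the opposite strand as ATTGG).
Hmgcs1: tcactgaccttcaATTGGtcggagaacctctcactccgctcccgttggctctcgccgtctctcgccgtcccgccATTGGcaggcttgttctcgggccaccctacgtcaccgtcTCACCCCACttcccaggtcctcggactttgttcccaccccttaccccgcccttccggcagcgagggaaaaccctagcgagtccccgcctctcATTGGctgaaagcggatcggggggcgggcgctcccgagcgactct

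The first of these motifs lies 137 to 129 bases before the start. It was found in 1 of 18 promoters of the list (5.56%) and in 1.05% of all promoters, and CCAAT in 14 of 18 (77.8%) and in 33.8% of all. Of 12 promoters of sterol regulation and uptake, 0 held the sterol regulatory element and 7 held CCAAT (58.3%). Of 29 promoters of acute phase genes, 2 (6.9%) held the sterol regulatory element and 3 (10.3%) held CCAAT. The sterol regulatory element was therefore not particular to the sterol lists. *Hmgcs1* itself had log2 signals of 13.12, 13.88 and 15.59 on HFD and 13.41, 14.45 and 15.09 on HFD + inulin, a difference of 0.18 (SE 0.39, exact permutation P = 0.701).

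In fatty acid and triglyceride synthesis, HFD + inulin was near HFD and lay below LFD. On HFD + inulin 14 of 24 genes were higher than on HFD and 10 lower, with a median of 0.08 and 0 at a P under 0.05 in either direction. Slide medians were -0.18, -0.09 and 0.54, and the median turned to -0.04 without HFD replicate 3, to -0.10 without slide 3 and to -0.05 without the 6 arrays with adipocyte or pancreatic signal. On LFD, against the same HFD arrays, the median was 0.65 and 13 of 24 genes were higher at a P under 0.05 (4.28% of all genes were). The direct comparison of HFD + inulin with LFD takes no difference from HFD, though the HFD arrays entered the normalisation and the variance of the fit. It had a median of -0.61 and 11 of 24 genes lower on HFD + inulin at a P under 0.05 (3.52% of all genes). That count was 9 without the 6 arrays with adipocyte or pancreatic signal and 6 without slide 3.

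*Scd1*, the desaturase that makes oleate, was at 15.66, 16.05 and 17.38 on HFD, at 15.35, 16.08 and 16.61 on HFD + inulin and at 16.82, 17.21 and 17.56 on LFD. It differed by -0.14 between HFD + inulin and HFD (SE 0.28, exact permutation P = 0.69) and by -1.13 between HFD + inulin and LFD (exact permutation P = 0.00216). *Acaca*, acetyl-CoA carboxylase, the first committed step, gave 0.23 (SE 0.28, exact permutation P = 0.45) and -0.84 (exact permutation P = 0.026) in these comparisons. *Fasn*, fatty acid synthase, gave 0.46 (SE 0.57, exact permutation P = 0.487) and -0.84 (exact permutation P = 0.184), and *Srebf1*, the gene of SREBP1, 0.10 (SE 0.36, exact permutation P = 0.777) and 0.22 (exact permutation P = 0.595). The difference from HFD depended on single arrays. It went from 0.07 (without HFD replicate 3) to 0.79 (without HFD + inulin replicate 1) for *Fasn* and from 0.07 (without HFD replicate 3) to 0.41 (without HFD replicate 4) for *Acaca*.

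In fatty acid oxidation and ketogenesis, HFD + inulin lay above LFD. Of 27 genes 19 were lower on HFD + inulin than on HFD, with a median of -0.07 (0.01 with cyclic loess over all pairs and 0.02 without slide 2), while on LFD the median was -0.29, with 12 genes lower and 2 higher at a P under 0.05 (4.04% and 4.28% of all genes). Directly against LFD, 7 genes were higher on HFD + inulin and 0 lower (3.56% and 3.52% of all genes), with a median of 0.18. Without HFD + inulin replicate 6, and likewise without the 6 arrays with adipocyte or pancreatic signal, 3 were higher, without LFD replicate 4 the count was 4, without slide 2 it was 12, and without slide 3 it was 1 higher and 3 lower. *Ppara*, the gene of PPAR alpha, differed from HFD by -0.15 (SE 0.17, exact permutation P = 0.275) and from LFD by 0.32 (exact permutation P = 0.162), and *Cpt1a*, which admits fatty acids to mitochondria, by -0.19 (SE 0.15, exact permutation P = 0.221) and 0.11 (exact permutation P = 0.433). The member at a P under 0.05 against HFD was *Ppargc1a*, a coactivator of oxidative genes, with a difference of 0.52 (SE 0.24, limma P = 0.0379, exact permutation P = 0.0606). It was 0.33 without HFD replicate 4 or slide 2. Differences in the list ran from -1.05 to 0.60. The lowest was that of *Cyp4a10*, named after its value was seen, which missed a limma P under 0.05. Its dimmer probes, also well above background on all 12 arrays, differed by -1.08 and -0.94, each at a limma P under 0.05. No member was higher at a P under 0.05 without HFD replicate 3, HFD + inulin replicate 4 or 6, or slide 2 or 3. The same held without the 6 arrays with adipocyte or pancreatic signal. Lower than on HFD at that P were 3 members without slide 3 and 1 without HFD + inulin replicate 4.

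**Figure D4:**
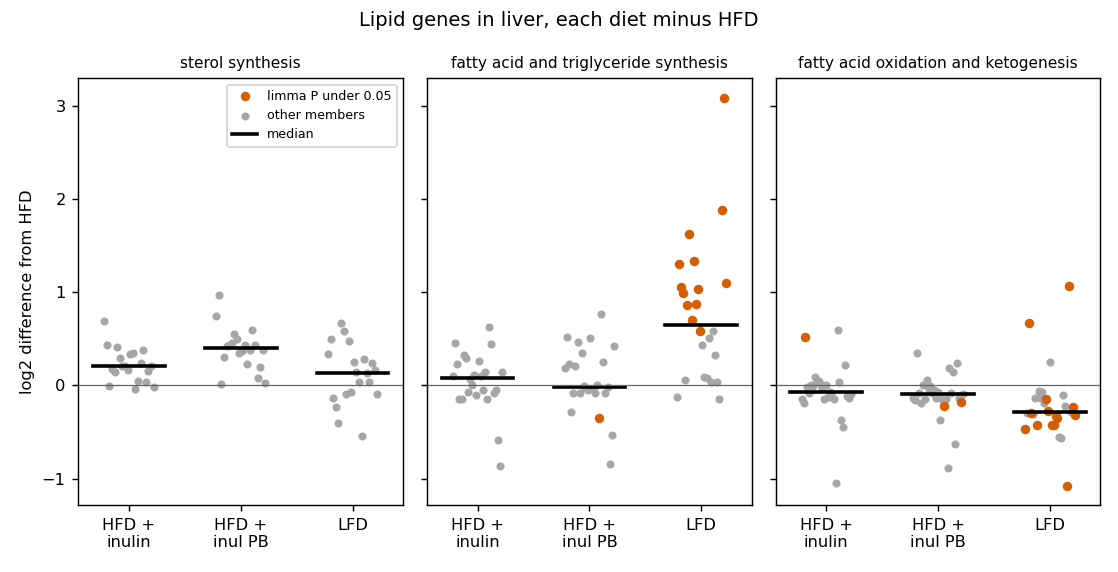
Members of 3 lipid lists in liver, each point the log2 difference of 1 gene from HFD on HFD + inulin, HFD + inul PB or LFD, with the same 6 HFD arrays behind every column; orange points have an unadjusted limma P under 0.05 and bars are medians. In fatty acid and triglyceride synthesis 13 of 24 genes are orange and above 0 on LFD and none on HFD + inulin.

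Of 23 genes of lipid droplets and fat uptake 14 were lower on HFD + inulin than on HFD, with a median of -0.05 (0.02 with cyclic loess over all pairs). The median was 0.07 without slide 2 (15 of 23 higher), -0.18 without slide 3 and 0.06 without HFD replicate 4, so the list had no settled direction. *Fabp2*, a fatty acid binding protein best known from the intestine, was at 15.23, 15.38 and 15.64 on HFD and at 14.74, 15.06 and 15.22 on HFD + inulin, with no overlap. It differed by -0.39 (SE 0.10, limma P = 0.00112, exact permutation P = 0.00216), a fold under 1.5, and by -0.47, -0.64 and -0.06 within slides. It was lower than on HFD by a value of -0.61 on HFD + inul PB (exact permutation P = 0.00216) and -0.42 on LFD (exact permutation P = 0.00433). *Pparg*, the gene of PPAR gamma, which drives fat storage, differed by -0.07 from HFD (SE 0.18, exact permutation P = 0.777) and by 0.70 from LFD (exact permutation P = 0.00433). *Cd36*, a fatty acid transporter, differed by -0.43 from HFD (SE 0.27, exact permutation P = 0.238), and by -0.22 without HFD replicate 4. In the lipoprotein list (7 of 15 higher, median 0.00) *Tm6sf2*, which helps load lipid onto secreted lipoproteins, was higher on HFD + inulin on each slide (0.29, 0.41 and 0.45) and by 0.38 over all (SE 0.12, limma P = 0.00523, exact permutation P = 0.0238). It was at 10.86 to 11.77 (median 11.33) on HFD and 11.46 to 11.95 (median 11.71) on HFD + inulin, so the diets overlapped.

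Few genes for the use of fermentation products differed. In the list of short-chain fatty acid and fructose use 8 of 19 were higher and 11 lower (median -0.08, and 0.00 without HFD + inulin replicate 1). *Pccb*, a subunit of propionyl-CoA carboxylase, which brings propionate into the citric acid cycle, was the member at a P under 0.05, at 9.87 to 10.19 (median 10.16) on HFD and 9.53 to 10.22 (median 9.78) on HFD + inulin (difference -0.28, SE 0.12, limma P = 0.0327, exact permutation P = 0.0563). The lower members at a P under 0.05 numbered 0 without HFD replicate 3 or HFD + inulin replicate 6, 3 without HFD + inulin replicate 4 or slide 2, and 2 without the 6 arrays with adipocyte or pancreatic signal. Of 17 genes of glucose production 8 were higher, with a median of 0.00 and none at a P under 0.05.

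Among secreted hepatic factors (6 of 16 higher, median -0.04), *Enho*, which encodes adropin, a peptide tied to energy balance, was at 11.46, 13.10 and 13.35 on HFD and at 12.70, 13.74 and 14.09 on HFD + inulin. All but 2 HFD + inulin arrays were above every HFD array. It was higher by 0.83 (SE 0.31, limma P = 0.0131, exact permutation P = 0.0498), by 1.21, 1.11 and 0.17 within slides, and by 1.15 relative to LFD (SE 0.31, limma P = 0.00124). Without HFD replicate 4 the *Enho* difference from HFD was 0.58. Over all 39 other settings it was 0.58 to 1.16, with a limma P of 0.0034 to 0.13. *Fst*, follistatin, which binds activins, was higher by 0.76 (SE 0.30, limma P = 0.0189, exact permutation P = 0.0736), by 0.55 without HFD replicate 3 and 0.53 without HFD + inulin replicate 2, both at a limma P over 0.05, and was lower than on LFD, with a difference of -0.87 (limma P = 0.00857). The remaining lists had medians near 0: matrix and fibrosis -0.09 (9 of 19 higher), unfolded protein and stress response -0.01 (7 of 14), clock 0.08 (10 of 16), xenobiotic enzymes -0.09 (8 of 22) and cell cycle 0.02 (10 of 16). The matrix and fibrosis median was 0.12 without slide 2 (13 of 19 higher), 0.00 without HFD replicate 3 and 0.03 without HFD replicate 4, so its direction was not settled. The clock median was -0.06 without HFD replicate 1, the xenobiotic median 0.03 and the cell cycle median -0.14 without slide 3, and the stress response median 0.08 without slide 2. Their members at a limma P under 0.05 that were well above background were *Tgfb1*, a fibrogenic cytokine (0.25, exact permutation P = 0.115), *Gsta2*, a glutathione transferase (0.69, exact permutation P = 0.0974), *Cyp3a25*, a cytochrome P450 (-0.57, exact permutation P = 0.0195), and *Ccnd1*, cyclin D1 (0.50, exact permutation P = 0.026). Of these, only *Cyp3a25* kept a limma P under 0.05 with any single array left out, and it missed it without slide 2 (-0.36) or the 6 arrays with adipocyte or pancreatic signal (-0.48). *Gsta2* was at 0.48 and *Ccnd1* at 0.35 without HFD + inulin replicate 6, and *Tgfb1* at 0.16 without HFD replicate 1.

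**Figure D5:**
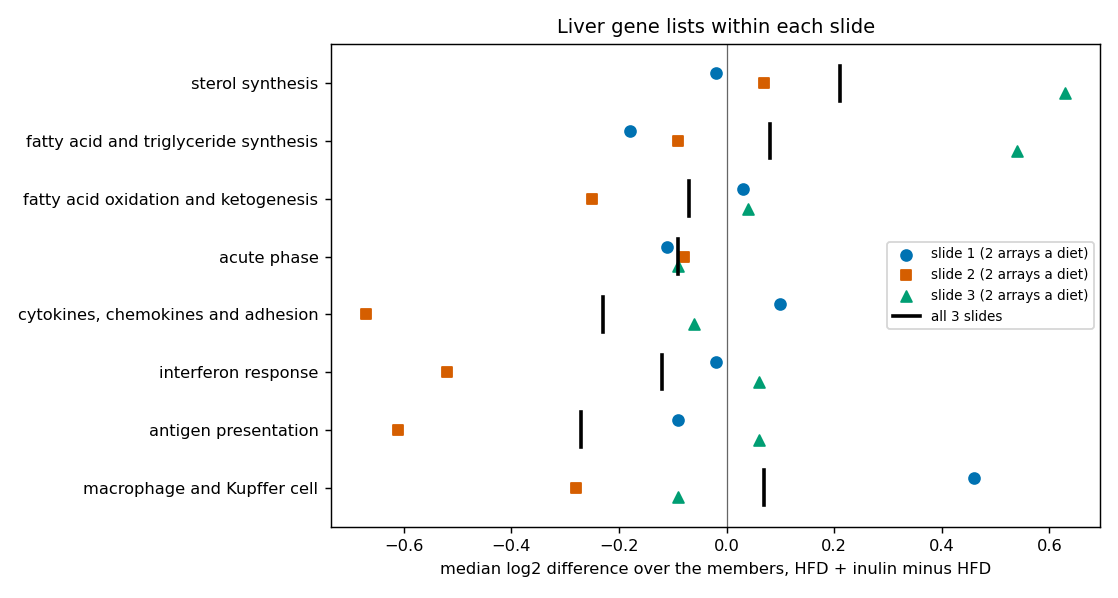
Median log2 difference over the members of 8 lists, HFD + inulin minus HFD, within each of the 3 slides (2 arrays a diet on each) and over all arrays (bar). The acute phase medians of -0.11, -0.08 and -0.09 lie together, the sterol synthesis median is 0.63 on slide 3 and near 0 on the others, and the 3 inflammation lists lie lowest on slide 2.

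Most of the 6 highest and 6 lowest genes by the rule lay outside these pathways. The rule picked them by their difference and limma P on these same arrays, so a low permutation P adds no separate support. The same holds for genes noticed after their values were seen. *Rarres1*, a retinoid-responsive gene, was at 11.89, 12.24 and 12.63 on HFD and at 10.63, 11.19 and 11.49 on HFD + inulin, without overlap. It differed by -1.14 (SE 0.20, limma P = 7.76e-06, adjusted P = 0.216, exact permutation P = 0.00216), a 2.21-fold higher signal on HFD, and was lower on each slide (-1.36, -1.28 and -0.80). Against the other diets *Rarres1* on HFD + inulin was lower too, by differences of -0.45 from HFD + inul PB (95% interval -0.85 to -0.04, exact permutation P = 0.0714) and -0.75 from LFD (exact permutation P = 0.00649). *Smim1*, a small membrane protein known from red cells and noticed after its values were seen, was at 7.10, 7.22 and 7.49 on HFD and at 8.01, 8.34 and 8.71 on HFD + inulin, again without overlap. It was higher by 1.11 (SE 0.18, limma P = 2.74e-06, exact permutation P = 0.00216) and by 0.97 to 1.29 within slides, and by 0.83 on HFD + inul PB and 0.84 on LFD relative to the same HFD arrays. The summed signal of 4 erythroid markers was 15.11 to 15.64 on HFD and 14.83 to 16.02 on HFD + inulin. The *Hba-a1* probe added the most to this sum, which says nothing of RNA amounts. The part of red cell RNA in the *Smim1* values was not tested. A second *Smim1* probe, well above background on 0 of the 12 arrays, differed by -0.67.

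The other lowest genes by the rule were *Lrtm1* (-1.92, exact permutation P = 0.00433), *Dct*, a pigment enzyme (-1.72, exact permutation P = 0.00649), *Msmp* (-1.15, exact permutation P = 0.00433) and *Neat1*, the long non-coding RNA of nuclear paraspeckles (-1.14, exact permutation P = 0.00649). *Dct* was at 9.54 to 11.77 (median 10.75) on HFD and 7.73 to 10.04 (median 9.02) on HFD + inulin, which overlap. The sixth by the fold and P criteria was *Saa2*. Highest were *Slc13a5*, the citrate carrier of the plasma membrane (1.46, exact permutation P = 0.026), *Tuba8*, an alpha tubulin (1.43, exact permutation P = 0.00649), and 4 genes that passed the filter on dim probes through HFD + inulin alone, where they were brighter, so that their place among the highest and their differences are given as a description with no test. These were *Cxcl13*, *Wnk4*, a kinase that regulates ion carriers (1.29), *Ranbp3l* (1.46) and *Rufy4* (1.14). *Ranbp3l* was well above background on 1 of 6 HFD arrays, *Wnk4* on 3 and *Rufy4* on 5, so their lower levels are uncertain. With normexp background correction *Ranbp3l* differed by 0.47, *Wnk4* by 0.43 and *Rufy4* by 0.57, each under a fold of 1.5. *Slc13a5* lost its place among the probes at the fold and P criteria in 26 of 39 other settings (differences of 1.00 to 1.70), while *Rarres1* held it in 39 of 39 (-1.32 to -1.04). *Msmp* lost its place in 9 of the 39 settings, *Saa2* in 8, *Lrtm1* in 6, *Tuba8* in 2, and *Dct* and *Neat1* in 1 each. *Tuba8* was also higher on HFD + inul PB (1.94, exact permutation P = 0.00216) and LFD (2.45, exact permutation P = 0.00216) relative to the same HFD arrays. *Cyp21a1*, a steroid 21-hydroxylase noticed after its values were seen, was at 9.77 to 10.74 on HFD and 8.95 to 9.72 on HFD + inulin, a difference of -1.0 (limma P = 0.000288, exact permutation P = 0.00216).

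Few probes separated plain inulin from its esters in liver. The direct comparison of HFD + inulin with HFD + inul PB gave 110 probes at the fold and P criteria (0.198%), of which 33 (0.0593%) had more signal on HFD + inulin and 77 (0.138%) less (from 55 to 64 against 57 to 78 with any 1 HFD + inulin array left out), and 0 after adjustment by limma, with 1275 at an unadjusted P under 0.05 and 161 under 0.01, where 557 would be reached if no gene differed. The diets gave fiber at the same share of the weight, of which esterified acid took up a part in HFD + inul PB. The sterol synthesis list had a median of -0.15 in this comparison and the acute phase list 0.02. For *Enho* the difference was -0.25 with a 95% interval of -0.89 to 0.39, and for *Itgax* 0.09 (-0.40 to 0.58). These intervals include 0, and for *Enho* the interval also holds a difference as large as that between HFD + inulin and HFD.

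HFD + inulin and LFD differed more, with 365 probes at the fold and P criteria (0.656%), of which 124 (0.223%) had more signal on HFD + inulin and 241 (0.433%) less (163 and 206 with scaling to the 75th percentile), and 6 after adjustment. Beside the lipid genes, 6 of 14 antigen presentation genes were lower on HFD + inulin than on LFD at a P under 0.05 and 0 higher (3.52% and 3.56% of all genes), with a median of -0.34. They were *Cd74*, *H2-Aa*, *H2-Ab1*, *H2-Eb1*, *H2-DMa* and *H2-DMb1*, which load and present peptides on MHC class II. The count was 5 without the 6 arrays with adipocyte or pancreatic signal, and 4 without slide 2. T cell and B cell markers moved with them: 4 of 8 in each list were lower on HFD + inulin than on LFD at a P under 0.05, with medians of -0.55 and -0.46, and the mean of the T cell list was 0.11 to 0.68 above the HFD mean on the 6 LFD arrays and -0.29 to 0.02 on the 6 HFD + inulin arrays. The B cell count was 1 without slide 2, and likewise without the 6 arrays with adipocyte or pancreatic signal. Their part in the class II values was not tested. Of 22 xenobiotic enzymes 5 were higher on HFD + inulin than on LFD at a P under 0.05 and 0 lower (3.56% and 3.52% of all genes), with a list median of 0.33. The counts were 3 higher and 1 lower without the 6 arrays with adipocyte or pancreatic signal, and 5 and 1 without slide 2. *Cyp2b10*, a target of the receptor CAR, stood at -0.72 on HFD + inulin relative to HFD (exact permutation P = 0.361) and at -3.69 on LFD relative to the same HFD arrays.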

How the data were processed

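RNA of 24 livers was hybridised, 1 colour (Cy3), to Agilent SurePrint G3 Mouse arrays of 62976 spots. The deposited scanner files hold the intensity of each spot as written by Agilent Feature Extraction 10.7.3.1, and the authors' deposited table holds log2 values scaled between arrays by cyclic loess. The submitters' processing notes name limma. The table served only as an alternative. For the results, log2 of the processed intensity of 59305 spots, without controls and outlier flags, was normalised by cyclic loess (span 0.7, 3 iterations) over the 24 liver arrays and averaged by probe. The table's values correlated with log2 of the median spot signal more closely than with log2 of the processed signal, so its background treatment differs.

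The 4 diets entered a single fit in limma 3.58.1 (R 4.3.3, with the package data.table in version 1.17.8), with Benjamini-Hochberg adjustment over 55681 probes. The tests were two-sided. Exact permutation tests used the 924 splits of 12 arrays. Values were identical in 0 of the 276 array pairs, and saturated spots numbered 0. The fits were checked on simulated data. The 6 arrays of a diet stand for 6 mice per the study's methods, and P-values measure the spread between them. The number of arrays limits the precision.

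Groups came from the sample titles. Gene symbols came from RefSeq, by the transcript accession that the array files give for a probe, and promoters came from RefSeq (GRCm38.p6). The genes described and the lists were chosen with earlier results of these data known. List members to which no probe was matched in this way were *Apoc2*, *Mx1*, *Mx2*, *Hspa1b*, *Cyp2a5*, *Gsta1*, *Cd68*, *Ly6g*, *Hbb-b1* and *Amy2b*. The array may still hold probes for them. Genes were named by a rule: *Saa1*, *Saa2*, *Lcn2*, *Itgax*, *Enho* and 14 regulating genes of lipid metabolism always, up to 3 members of each pathway list and of the macrophage list with the largest difference at a P under 0.05, and the 6 highest and 6 lowest genes at the fold and P criteria, in both cases only genes well above background on every array of a diet. It named 43 genes, of which a few are not reported here, and those noticed outside it are marked as such. Alternatives were other scalings between arrays, background correction by normexp (offset 50, on the median spot signal), the authors' values, other spot and probe filters, only the 2 diets compared, blocks for slide, replicate number and array position, and each array left out. Leaving out a slide, or arrays with adipocyte or pancreatic signal, was chosen after seeing the data.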

Additional observations from a re-analysis of the deposited data

Results flagged for a closer look

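Arrays were screened for values far from the other 5 of their diet, by the gap to the nearest array over the whole range (Dixon's critical value of 0.625 for 6 arrays). Of 140 groups 16 passed, where about 7 would by chance at 1 in 20.

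HFD replicate 3 was the array in 4 of them. It had the highest mean of the T cell markers (0.55 above the HFD mean, with the others between -0.23 and -0.02), of the adipocyte markers (1.82, others -0.68 to 0.01) and of the interferon response genes (0.54, others -0.27 to 0.03). Its log2 signal of *Cxcl10* was 11.11, with the others between 9.05 and 9.80.

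Among the named genes, *Scd1* was 17.38 on HFD replicate 4 (others 15.66 to 16.22), *Cpt1a* 13.51 on HFD replicate 1 (others 14.21 to 14.47) and *Pccb* 9.87 on HFD replicate 2 (others 10.11 to 10.19). *Ranbp3l* was 7.86 on HFD + inulin replicate 6 (others 5.42 to 6.02), and its difference from HFD was 1.46 with that array and 1.12 without it. The pancreatic acinar markers averaged 4.71 above the HFD mean on the same array (others -0.19 to 0.39), and the bile duct markers -0.72 (others -0.14 to 0.11). On HFD replicate 6 the bile duct markers averaged -0.66 (others -0.02 to 0.26).

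The erythroid markers averaged 0.85 on HFD replicate 2 (others -0.23 to -0.04) and 1.19 on HFD + inulin replicate 4 (others -0.26 to -0.03). The secreted hepatic factors averaged -0.28 on HFD replicate 5 (others -0.02 to 0.13) and -0.20 on HFD + inulin replicate 4 (others 0.12 to 0.21), and the genes of short-chain fatty acid and fructose use 0.11 on that array (others -0.18 to -0.09).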

How the results depend on the processing

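The count of probes at the fold and P criteria was lower under several other settings. For HFD + inulin against HFD it was 222, and 47 with normexp background correction (which also starts from the median spot signal), 68 with the authors' values (which differ in more than 1 step) and 93 over probes well above background. Against HFD + inul PB the counts were 110, 7, 16 and 19, and against LFD 365, 130, 161 and 184. Leaving out 1 array gave 195 to 251, 101 to 216 (216 without HFD + inul PB replicate 3) and 326 to 422. After adjustment, HFD + inulin against HFD had 0 probes, but 2 with blocks for slide, row and column, 1 over probes well above background, 1 without the arrays with adipocyte or pancreatic signal, and 0 to 1 with 1 array left out (1 without LFD replicate 4). Against LFD it had 6, with 17 (normexp), 10 (probes well above background), 3 (only the 2 diets), 12 (slide as a block) and 3 to 18 with 1 array left out (3 where HFD + inulin replicate 1 or LFD replicate 6 was dropped, 11 for HFD + inul PB replicate 3, 18 for LFD replicate 3). The blocks for array position could not be fitted for the comparisons with HFD + inul PB and LFD, which shared no column with HFD + inulin.

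The replicate numbers were shared between diets, and each number stood for 1 slide and row (numbers 1 and 2 on slide 1, 3 and 4 on slide 2, 5 and 6 on slide 3). The correlations of the deviations of arrays with 1 number were 0.40, 0.44, -0.05, 0.00, 0.16 and 0.01. They were over 0.1 for 3 of the 6 numbers, and over the highest correlation with another number (0.28) for number 1 alone, so the numbers were not taken as pairs. With the replicate number as a block 260 probes met the fold and P criteria for HFD + inulin against HFD.

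Cyclic loess over all pairs of arrays moved the median of all genes to 0.07 and that of sterol efflux and bile acids from -0.10 to -0.02. Leaving out slide 2 moved antigen presentation from -0.27 to 0.04. The acute phase median was between -0.11 and 0.00 over all settings. Named genes that changed direction, none of them at the fold and P criteria, were *Cyp7a1* (-0.09 without slide 2), *Pparg* (0.01 with loess over all pairs, 0.24 without slide 2, and -0.17 to 0.06 with 1 array left out), *Scd1* (0.12 without slide 2, and -0.26 to 0.10 with 1 array left out, the latter without HFD replicate 4), *Sqle* (-0.12 without slide 3) and *Srebf1* (-0.30 without slide 2, -0.16 without the arrays with adipocyte or pancreatic signal, and -0.04 to 0.33 with 1 array left out). Over all named genes and alternatives, 97 values lost their call at the fold and P criteria and 24 gained one. The causes were not tested. Only 46.4 to 51.7% of the spots of an array were well above background, which limits what dim probes can show.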
